A study of Mus musculus with 48 samples.

Results

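The Wnt ligands, their Frizzled receptors and the secreted antagonists of the pathway were followed across 4 groups of mouse tumours. Members were the genes of the deposited table whose symbol begins with Wnt, Fzd, Sfrp or Dkk followed by a digit, together with Lrp5, Lrp6, Axin2, Wif1 and Ctnnb1. This gave 35 of the 39637 genes, namely 15 ligands, 8 receptors, 2 co-receptors, 8 antagonists, the relay protein gene Ctnnb1 and the feedback target Axin2. Wnt proteins are secreted, lipid-modified signals that bind a Frizzled receptor and, in the canonical branch, an Lrp5 or Lrp6 co-receptor at the same time. Binding stops a cytoplasmic complex, built on the scaffold Axin, from destroying beta-catenin, the product of Ctnnb1, which then enters the nucleus and switches on genes with TCF and LEF factors. Sfrp proteins and Wif1 bind Wnt ligands outside the cell, and Dkk1, Dkk2 and Dkk4 bind the co-receptors. In tumours the pathway is known both for its part in cancer cell growth and for its activity in the surrounding stroma.

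Whole tumours had been grown under the skin of female BALB/c mice aged 8 to 9 weeks and were taken out before treatment. AB1 is a mesothelioma line of the mouse, and its tumours were removed on day 8. Renca is a line of mouse kidney cancer, with removal on day 10. Treatment with anti-CTLA4 plus anti-PDL-1 antibodies followed, and each mouse was classed later as a responder or a non-responder, with 12 mice of each class per tumour and a separate mouse behind each of the 48 libraries. All 4 groups share this treatment, and none was left untreated. Each tumour came from 1 transplanted line in an immune-competent host, so that RNA of cancer cells and host cells was measured together. In such bulk samples fewer cells of a type and less RNA per cell cannot be told apart. Line, day of removal and sequencing flow cell also cannot be told apart between AB1 and Renca.

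The 48 libraries held 16.4 to 27.8 M (mega) counts each. A list of 5 renal tubule genes summed to between 205.7 and 470.0 CPM (counts per mega-count of the library, scaled with TMM factors) in Renca and to at most 0.44 CPM in AB1. The 3 mesothelium genes in the table, of 5 listed, had median sums of 1.44 CPM in AB1 non-responders, 1.49 in AB1 responders, 0.69 in Renca non-responders and 0.71 in Renca responders, so that the mesothelioma label has little mesothelium marker RNA beside it. Skin keratinocyte RNA, over 7 genes, reached 630.8 CPM in AB1 non-responder 3, 355.1 in AB1 non-responder 7 and 69.5 in AB1 responder 3, against medians of 10.7 and 7.75 in the 2 AB1 groups. AB1 non-responder 3 was the highest of the AB1 non-responders for 17 members. Fibroblast RNA, over 8 genes led by collagens, ran from 19872 to 33155 CPM in AB1 non-responders and from 10269 to 14632 CPM in 11 AB1 responders, while AB1 responder 12 had 28372 CPM. That library was the highest AB1 responder for 14 members. Results that rest on these libraries are given with and without them.

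Promoter sequence is shown for 3 members because they cover what the search for TCF and LEF letters returned among members that fell in AB1 responders. Axin2 is the textbook transcriptional target of the pathway, and Wnt11 and Wnt5b are the ligands whose window held a match. The 250 bases before the start site are printed 5′ to 3′ from RefSeq (GRCm38.p6), for Axin2 at chr11:108920099-108920348 on the plus strand, for Wnt11 at chr7:98834862-98835111 on the plus strand and for Wnt5b at chr6:119449387-119449636 on the minus strand. Capitals mark the letters CTTTGAA or CTTTGAT on either strand, which are a core recognised by TCF and LEF factors.
Axin2: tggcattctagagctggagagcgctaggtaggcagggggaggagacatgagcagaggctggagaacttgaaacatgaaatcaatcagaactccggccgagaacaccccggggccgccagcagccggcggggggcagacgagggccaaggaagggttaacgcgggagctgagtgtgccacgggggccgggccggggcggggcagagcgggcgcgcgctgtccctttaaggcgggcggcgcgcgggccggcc
Wnt11: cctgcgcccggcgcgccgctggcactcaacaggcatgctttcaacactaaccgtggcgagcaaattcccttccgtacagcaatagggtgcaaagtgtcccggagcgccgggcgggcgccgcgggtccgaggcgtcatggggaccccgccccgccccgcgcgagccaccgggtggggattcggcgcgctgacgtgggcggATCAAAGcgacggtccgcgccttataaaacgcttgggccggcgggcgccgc
Wnt5b: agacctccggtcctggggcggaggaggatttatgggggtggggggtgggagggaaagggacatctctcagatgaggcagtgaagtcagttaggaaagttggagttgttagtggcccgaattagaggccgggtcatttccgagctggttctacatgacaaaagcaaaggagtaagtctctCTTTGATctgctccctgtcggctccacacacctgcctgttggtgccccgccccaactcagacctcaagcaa
The match in Wnt11 is read on the opposite strand and ends 44 bases before the start site, and that in Wnt5b ends 64 bases before it. Of the 35 members, 26 had a promoter entry (250 bases before to 50 after the start), and 3 of those 26 held a match in at least 1 window, the third being Dkk1. Counted by window, 3 of 30 member promoters (10%) held a match, beside 8.65% of all 32851 promoters of the same length. Wnt5b has 2 other start sites and Wnt11 has 1 other start site in the table, all without a match. The Axin2 window held none, which says only that these letters are not in these bases. A match is a description and not a site of binding.

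Levels differed widely between members. Per kilobase of exon, Ctnnb1 was the highest member in every group, with medians of 109 CPM per kilobase in AB1 non-responders, 98.9 in AB1 responders, 146 in Renca non-responders and 136 in Renca responders. Next in AB1 non-responders stood the antagonists Dkk2 at 97.3, Dkk3 at 79.7, then Fzd2 at 16.7 and Sfrp2 at 15.4 CPM per kilobase. In Renca non-responders Sfrp2 at 23.9, Dkk3 at 11.04 and Fzd1 at 10.96 CPM per kilobase came after Ctnnb1. Among ligands Wnt10a was the highest in every group, at 7.14 and 6.50 CPM per kilobase in AB1 non-responders and responders and 10.3 and 9.78 in those of Renca. Counted by the median CPM of a group, 17 members in AB1 non-responders, 18 in AB1 responders and 13 in each Renca group stayed under 1 CPM. Wnt7a, a ligand of epithelia and the nervous system, had no count in any AB1 library, which allows up to 0.0103 CPM in the pooled non-responders and 0.0106 in the pooled responders. Wnt3a, a canonical ligand, had no count in either Renca group, with limits of 0.0120 and 0.0121 CPM. Dkk1 summed to 3 counts in AB1 non-responders, 1 in AB1 responders, 0 in Renca non-responders and 2 in Renca responders, and Dkk4 to at most 1 count in any group. These limits cover counting error only.

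**Figure D1:**
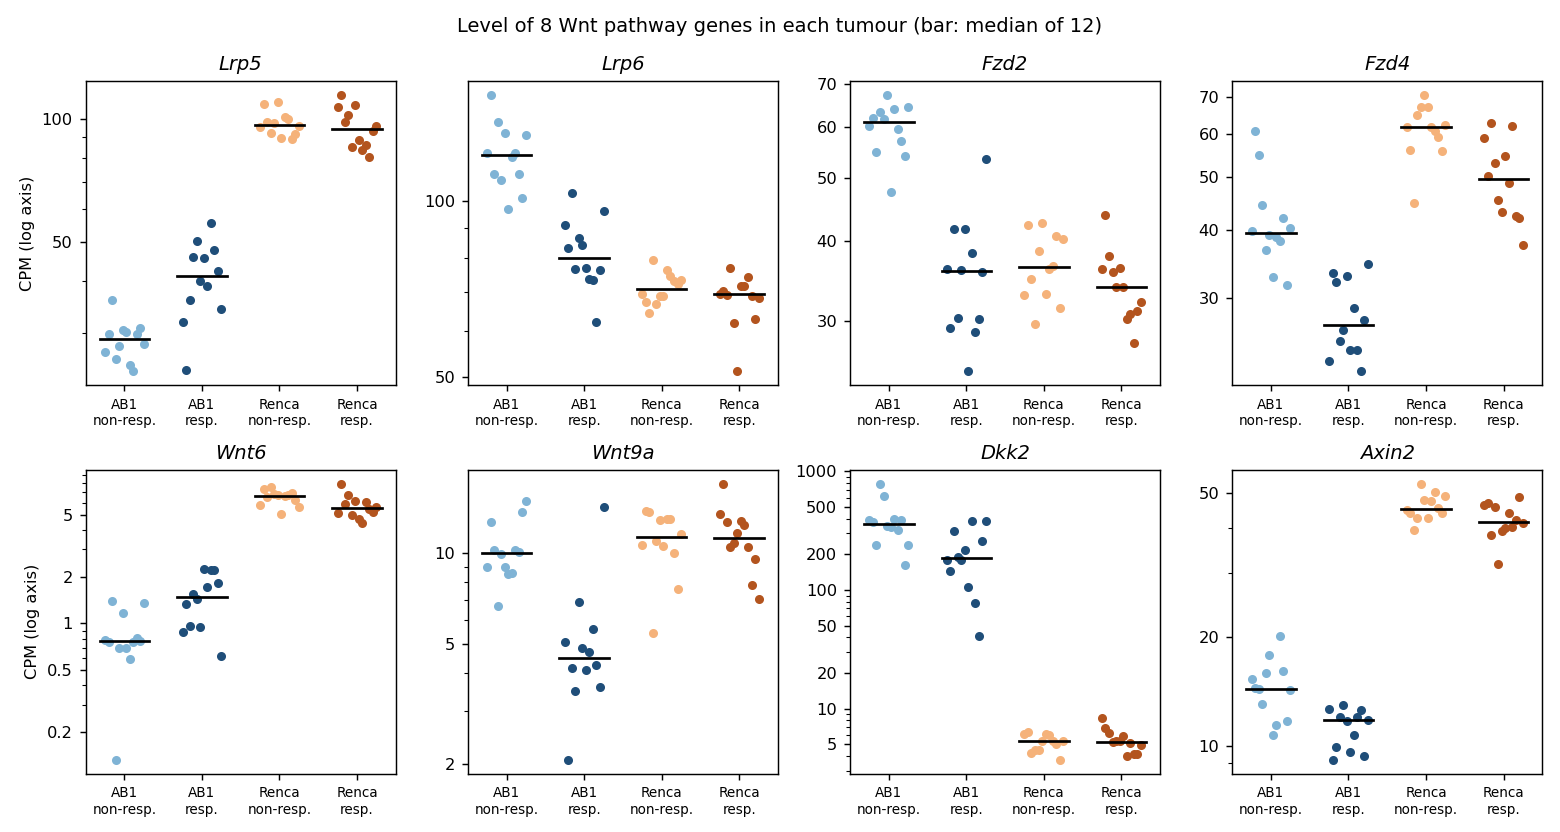
Level of 8 members in each library (points, CPM on a log axis) in the 4 groups, with the median of 12 libraries as a bar. Dkk2 sits at a median of 360 CPM in AB1 non-responders and 5.36 CPM in Renca non-responders, and Lrp5 and Lrp6 move in opposite directions between the AB1 groups.

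In GENCODE M21 (GRCm38) 7 of the members lie at chr3:132085292-132180304 on the plus strand (Dkk2), chr19:3584828-3686564 on the minus strand (Lrp5), chr6:134446476-134566965 on the minus strand (Lrp6), chr11:102604396-102608058 on the plus strand (Fzd2), chr3:83766321-83774316 on the plus strand (Sfrp2), chr1:74771892-74785322 on the plus strand (Wnt6) and chr11:108920349-108950783 on the plus strand (Axin2). The build used by the authors is not known, so these places are those of the annotation.

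The first comparison asked which members differed, before treatment, between AB1 tumours of mice that later responded and those that did not. Of the 35 members, 24 had enough counts to be tested, 2 rose in responders (Lrp5 and Wnt6) and 13 fell (Axin2, Dkk2, Fzd2, Fzd3, Fzd4, Fzd5, Lrp6, Sfrp2, Wnt11, Wnt2, Wnt4, Wnt5b and Wnt9a). Among all 15859 genes tested 60.4% passed an adjusted p of 0.05 in edgeR's quasi-likelihood test, 27.7% higher and 32.7% lower. Members passed at 62.5%, which is near that background, with 8.33% higher and 54.2% lower. Their median log2 fold change was -0.54, against -0.04 over all genes. Scaling by library totals alone gave 2 members higher and 14 lower, while over all genes it turned 4396 higher and 5181 lower into 3575 and 6628. All 15 called members kept their direction in each of the 2 AB1 flow cells, and 6 passed in both. The calls came from these same libraries, so a kept direction is no independent repeat. How many of all called genes behaved likewise was not counted. In no member did the 2 AB1 groups stand fully apart. The 11 members not tested were Dkk1, Dkk4, Fzd9, Fzd10, Wif1, Wnt1, Wnt3, Wnt3a, Wnt7a, Wnt9b and Wnt16.

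Of the 9 ligands tested 5 fell, 1 rose and 3 did not pass. Wnt9a, a ligand known from joint and blood stem cell development, lay between 6.69 and 14.8 CPM in AB1 non-responders (median 9.97) and between 2.06 and 14.2 in responders (median 4.47). Its log2 fold change was -0.94 ± 0.21 (SE, edgeR adjusted p = 0.00051). Only 1 responder, number 12 at 14.2 CPM, was above the non-responder median, and without it the change was -1.16. Wnt5b, a ligand of the non-canonical branch, had a lowest, median and highest level of 1.22, 1.44 and 2.65 CPM in non-responders and 0.657, 0.936 and 1.48 in responders. The fall of 0.65 ± 0.13 on the log2 scale passed (edgeR adjusted p = 0.00018), and 1 of 12 responders exceeded the non-responder median. Wnt6, an epithelial ligand, went the other way. It was at 0.132, 0.766 and 1.40 CPM (lowest, median, highest) in non-responders and 0.618, 1.49 and 2.23 in responders, a log2 change of 0.89 ± 0.25 (edgeR adjusted p = 0.0033). Although the groups overlapped, 11 of 12 responders were above the non-responder median.

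Wnt2, Wnt4 and Wnt11 were all under 1 CPM at the median and rested on few libraries. Wnt2, a ligand made by lung mesenchyme and endothelium, ran from 0.0781 through 0.401 to 3.13 CPM in non-responders and from 0.0853 through 0.267 to 0.742 in responders (log2 change -1.28 ± 0.48, edgeR adjusted p = 0.024). Its call was lost without non-responder 2 (-0.95), without non-responder 9 (-1.09) and without the 3 skin-rich libraries (-1.08, edgeR adjusted p = 0.079). Wnt11, a non-canonical ligand of morphogenetic movement, ran from 0.156 through 0.732 to 8.98 CPM in non-responders and from 0.131 through 0.285 to 1.22 in responders (log2 change -1.54 ± 0.53, edgeR adjusted p = 0.015). The 8.98 CPM came from the skin-rich non-responder 3, and without it the change was -0.71 (edgeR adjusted p = 0.083). Leaving out all 3 skin-rich libraries gave -1.05 (edgeR adjusted p = 0.0075). Wnt4, a ligand of kidney and gonad development, ran from 0.109 through 0.475 to 13.2 CPM in non-responders and from 0.042 through 0.346 to 1.85 in responders (log2 change -1.58 ± 0.69, edgeR adjusted p = 0.0498). The 13.2 CPM was again non-responder 3, and without that library the change was -0.27. Leaving out all 3 skin-rich libraries, which left 10 members lower and 4 higher, gave -0.58 (edgeR adjusted p = 0.18). In 15 of the 24 fits that left out 1 library the Wnt4 call was lost.

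Wnt5a, the main non-canonical ligand, did not pass in AB1 (log2 change -0.90 ± 0.55, edgeR adjusted p = 0.16). Non-responder 3 held 22.3 CPM, the next non-responder 2.87 CPM, and the group median was 1.47 CPM against 0.999 in responders. Without non-responder 3 the change was 0.00. Wnt2b and Wnt10a differed by 0.08 ± 0.17 and -0.03 ± 0.16 on the log2 scale. The plot of members against keratinocyte RNA shows non-responder 3 apart from the other AB1 libraries. That library was also high in fat and muscle RNA and low in RNA purity. The part of skin, fat or muscle RNA or of purity in these results was not tested beyond these fits.

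**Figure D2:**
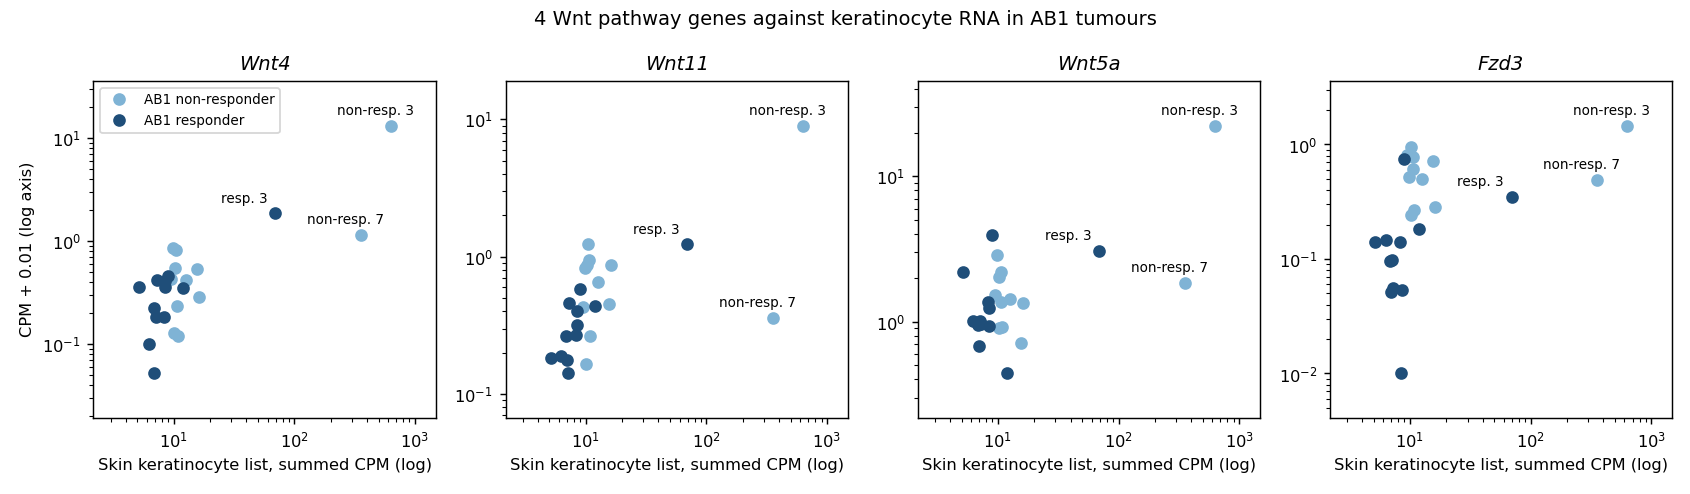
Level of Wnt4, Wnt11, Wnt5a and Fzd3 (CPM plus 0.01, log axis) against summed CPM of the skin keratinocyte list (log axis) in each of the 24 AB1 libraries. Non-responder 3, at 630.8 CPM of the list, holds the highest level of all 4 genes.

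Of the 6 receptors tested 4 fell and none rose. Fzd2, a receptor of both canonical and non-canonical ligands, was at 47.6, 61.1 and 67.4 CPM (lowest, median, highest) in non-responders and at 25.1, 35.9 and 53.5 in responders. This was 1.62-fold lower (log2 change -0.70 ± 0.09, edgeR adjusted p = 1.7e-06), and no responder reached the non-responder median. Responder 12 was the highest responder, and without it the change was -0.77. Fzd4, the receptor of retinal and blood-barrier endothelium, fell from 39.4 to 26.8 CPM in medians, with ranges of 31.7 to 60.8 and 22.0 to 34.6 (log2 change -0.53 ± 0.10, edgeR adjusted p = 6.1e-05). Fzd5, a receptor of Wnt7 and Wnt5 ligands, fell from 29.2 to 18.2 CPM in medians, with ranges of 18.3 to 48.3 and 14.4 to 25.3 (log2 change -0.57 ± 0.12, edgeR adjusted p = 0.00039). Again no responder was above the non-responder median of either gene. Fzd3, a receptor of planar polarity and axon guidance, was at 0.234, 0.559 and 1.45 CPM (lowest, median, highest) in non-responders and 0, 0.109 and 0.742 in responders. It had the largest fall of a called member in log2 terms, -1.83 ± 0.43 (edgeR adjusted p = 0.00092), and it rested on 1.45 CPM or less in every AB1 library. The 1 responder above the non-responder median was number 12, without which the change was -2.41.

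Fzd1 and Fzd7 did not pass, with log2 changes of 0.11 ± 0.13 and 0.01 ± 0.13. Fzd7 was at 87.0 CPM in non-responder 3 against a group median of 35.4, and Fzd1 at 54.1 against 28.4. Without that library both passed as higher in responders, by 0.24 (edgeR adjusted p = 0.020) for Fzd1 and 0.18 (edgeR adjusted p = 0.014) for Fzd7.

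The 2 co-receptors moved in opposite directions in AB1. Lrp5 was at 24.1, 28.9 and 36.1 CPM (lowest, median, highest) in non-responders and at 24.3, 41.3 and 55.7 in responders, 1.47-fold higher (log2 change 0.56 ± 0.10, edgeR adjusted p = 6.6e-05). Of 12 responders 11 were above the non-responder median. Lrp6, the other co-receptor for the same ligands, was at 97.0, 120 and 152 CPM in non-responders and at 62.0, 80.0 and 103 in responders, 1.42-fold lower (log2 change -0.50 ± 0.07, edgeR adjusted p = 2.5e-06). No responder reached the non-responder median of Lrp6, though the ranges met between 97.0 and 103 CPM. Within the first flow cell Lrp5 differed by 0.43 (edgeR adjusted p = 0.099) and within the second by 0.68 (edgeR adjusted p = 0.0010), and Lrp6 by -0.45 and -0.51, both past the threshold.

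Among antagonists, 2 of 5 tested fell and 3 did not pass. Dkk2, which binds the co-receptors, was at 162, 360 and 791 CPM (lowest, median, highest) in non-responders and 40.8, 185 and 381 in responders. The fall was 1.76-fold (log2 change -0.82 ± 0.29, edgeR adjusted p = 0.020), and 2 of the 12 responders exceeded the median of the non-responders. Sfrp2, a Wnt-binding protein of fibroblasts, was at 11.1, 33.2 and 96.7 CPM in non-responders and at 7.25, 17.7 and 50.2 in responders (log2 change -0.91 ± 0.32, edgeR adjusted p = 0.016). The extremes came from non-responder 3 and responder 12. Without the former the change was -0.66, without the latter -1.10, and without the 3 skin-rich libraries it did not pass (-0.57, edgeR adjusted p = 0.087). Dkk3, a relative without a clear place in the pathway, stood at medians of 268 and 239 CPM and did not pass (log2 change -0.14 ± 0.11). Sfrp1 and Sfrp5 did not pass either, at -0.41 ± 0.25 and -0.55 ± 0.38. Wif1 was too low to be tested, with medians of 0.187 CPM in non-responders and 0.0437 in responders, and with 6.55 CPM in non-responder 3.

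Ctnnb1 itself was nearly level, at 486, 565 and 612 CPM (lowest, median, highest) in non-responders and 460, 513 and 561 in responders. Its log2 change of -0.08 ± 0.04 did not pass (edgeR adjusted p = 0.074), and it passed without non-responder 7 (-0.10), responder 7 (-0.09) or responder 12 (-0.09). Axin2, which is induced by the pathway and dampens it, was at 10.8, 14.4 and 20.1 CPM in non-responders and 9.18, 11.8 and 13.04 in responders. This fall of 0.33 ± 0.09 on the log2 scale passed (edgeR adjusted p = 0.0024), and no responder was above the non-responder median.

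**Figure D3:**
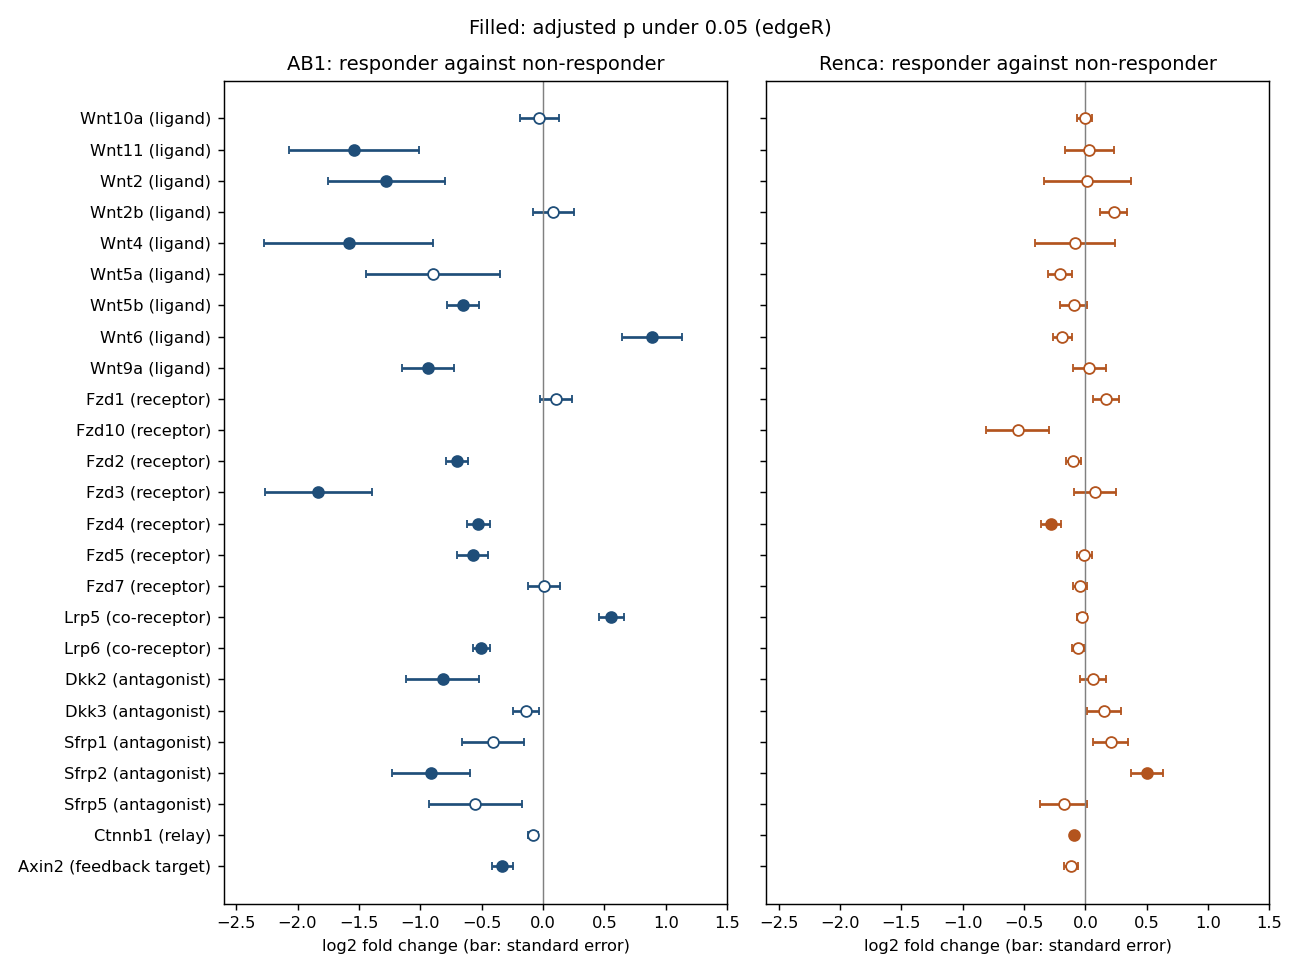
Log2 fold change of responders against non-responders (points, with standard errors as bars) for the members tested in either tumour, AB1 on the left and Renca on the right, ordered by role. Filled points passed an adjusted p of 0.05, 15 in AB1 and 3 in Renca.

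Other cell types moved with response in AB1. Of the 8 fibroblast list genes 6 fell in responders, 1 rose (Thy1, which T cells also express) and 1 did not pass, with a median log2 change of -0.83. All 7 leukocyte genes rose (median 1.34), all 8 T cell genes rose (median 1.86), and 3 of 4 tested keratinocyte genes fell. Of 4 tested bone and cartilage genes 3 fell, Dmp1, Col10a1 and Spp1 (median of the 4 -1.83). The remaining 1 went the other way, with a log2 change of 0.77, and passed only before adjustment. Of 6 macrophage genes 5 rose (median 0.73). The bone and cartilage score correlated at -0.86 with response. The AB1 fibroblast score, the mean log2 CPM of the list, averaged 9.59 in non-responders and 8.91 in responders and correlated at -0.83 with response across the 24 libraries. With that score as a term in the fit, none of the 15 members passed, and Dkk2 (0.13) and Wnt6 (-0.07) changed sign. Over all 15859 genes that fit called 2 higher and 1 lower. Responder 12, whose fibroblast sum lay within the range of non-responders, was the only responder within their range for Fzd2. For Wnt9a 2 of 12 responders lay within it, for Dkk2 8 and for Sfrp2 11. The part of fibroblast, bone or immune cell RNA in the members' changes was not tested further.

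**Figure D4:**
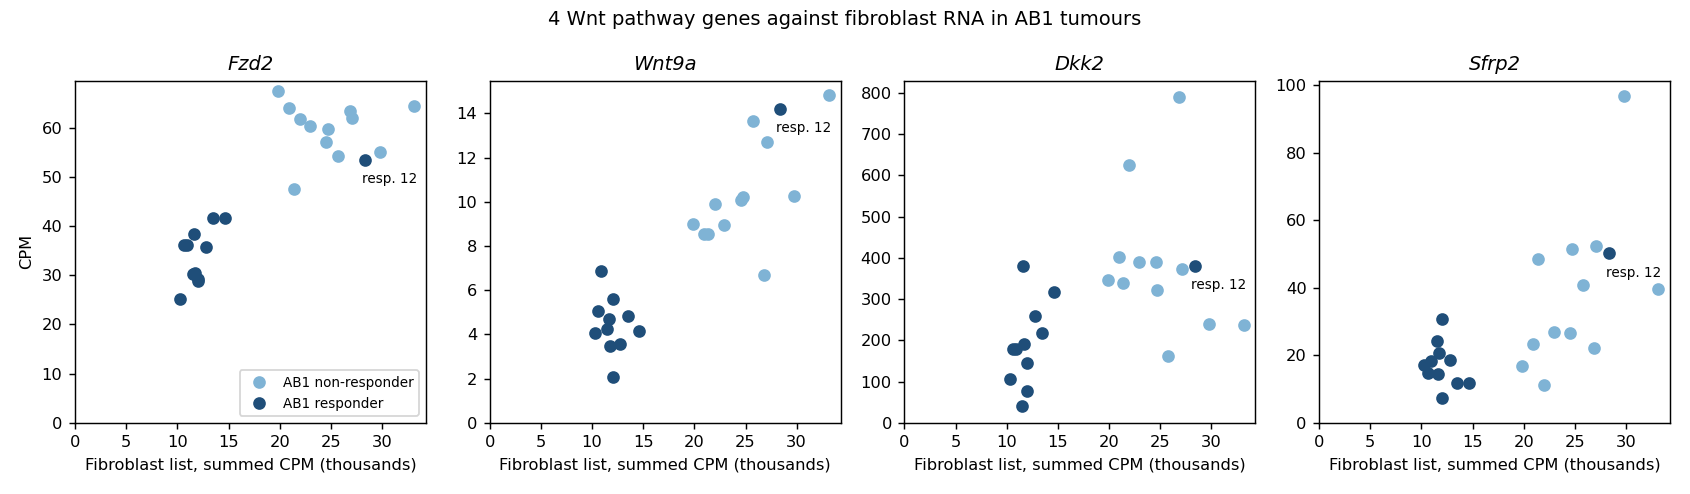
Level of Fzd2, Wnt9a, Dkk2 and Sfrp2 (CPM) against summed CPM of the fibroblast list (axis in units of 1000 CPM) in the 24 AB1 libraries. Responder 12, at 28372 CPM of the list, lies within the range of the non-responders on both axes, as 8 responders do for Dkk2 and 11 for Sfrp2 on the vertical axis.

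Genes that make, release and receive Wnt proteins were read from 5 lists beside the members. The called shares, 72.7% of secretion, 75.0% of co-receptor and polarity, 53.3% of relay, 75.0% of nuclear and 66.7% of target genes, are to be read against the 60.4% of all genes and are not results about the lists. Of 11 tested genes of secretion and extracellular modulation 3 rose and 5 fell in AB1 responders. Wls, which carries Wnt proteins to the cell surface, fell by 0.97 ± 0.11 on the log2 scale (edgeR adjusted p = 4.5e-07), from a median of 478 CPM to 219. Kremen1, a Dkk co-receptor, fell by 0.51 ± 0.09 (edgeR adjusted p = 7.5e-05), and Rspo1, which strengthens Wnt signals, rose by 2.32 ± 0.43 (edgeR adjusted p = 8.1e-05) from a median of 0.435 CPM to 3.09. Of 16 co-receptor, receptor turnover and planar polarity genes 2 rose and 10 fell, those of smallest p being Adgra2 (-0.71 ± 0.09), Prickle2 (-0.66 ± 0.09) and Ryk (-0.60 ± 0.09). Of 15 genes of the cytoplasmic relay and destruction complex 2 rose and 6 fell, and Dvl1, Dvl2 and Csnk1e fell by 0.28, 0.27 and 0.28.

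Nuclear factors were divided, 5 of 12 higher and 4 lower. Tle1 and Tle2, co-repressors of TCF factors, fell by 0.84 ± 0.10 and 0.72 ± 0.08, while Tcf7l2 rose by 0.92 ± 0.13. Tcf7 and Lef1 rose by 0.82 ± 0.12 and 0.87 ± 0.31, and both are also T cell genes, whose list rose beside them. Of 12 target genes 1 rose, Tcf7, and 7 fell, among them Wisp1 (-1.16 ± 0.19) and Bmp4 (-0.74 ± 0.14). Median log2 changes were -0.45 for secretion, -0.48 for co-receptors and polarity, -0.06 for the relay, 0.03 for nuclear factors and -0.59 for targets, beside -0.04 over all genes.

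In Renca the same comparison called few members. Of 25 tested, 1 rose in responders (Sfrp2), 2 fell (Fzd4 and Ctnnb1) and 22 did not pass, where 19.6% of 15778 genes passed, 11.1% higher and 8.52% lower. Members passed at 12.0%, their median log2 change was -0.03, and that of all genes was -0.01. At an unadjusted p of 0.05 8 members passed, but the share of all genes at that threshold was not counted, so the 19.6% is no background for it. With library totals alone 1 member was higher and 3 lower, and over all genes 1750 higher and 1345 lower became 1384 and 2464. All 3 called members kept their direction in both Renca flow cells, which hold the same libraries that gave the calls. None passed within either flow cell, where fewer libraries were compared. Over all genes 0 passed within the first, and 925 were higher and 318 lower within the second.

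Sfrp2 was at 28.8, 51.4 and 60.4 CPM (lowest, median, highest) in Renca non-responders and 45.8, 64.6 and 100.3 in responders, 1.41-fold higher (log2 change 0.50 ± 0.13, edgeR adjusted p = 0.011). Of 12 responders 9 were above the non-responder median. The difference was 0.53 in the first flow cell and 0.47 in the second. Fzd4 was at 44.8, 61.8 and 70.7 CPM in non-responders and 37.5, 49.5 and 62.7 in responders (log2 change -0.28 ± 0.08, edgeR adjusted p = 0.016), and 2 responders exceeded the non-responder median. It differed by -0.22 and -0.34 in the 2 flow cells. Ctnnb1 was at 701, 757 and 818 CPM in non-responders and 661, 708 and 781 in responders, a fall of 0.09 ± 0.03 (edgeR adjusted p = 0.028) that was lost in 9 of the 24 fits that left out 1 library. None of the 3 passed when the 260/280 and 260/230 absorbance ratios of the RNA were terms in the fit, which left 115 genes higher and 88 lower of all tested.

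The other 22 members tested in Renca did not pass. Lrp5 was at 80.5, 94.5 and 114 CPM in responders and 89.0, 96.7 and 110 in non-responders, a log2 change of -0.03 ± 0.04. Lrp6 differed by -0.06 ± 0.05 and Axin2 by -0.12 ± 0.06, and neither passed. With the replicate number as a block, which pairs a responder and a non-responder of a common lane, 4 members were lower. Those added were Wnt5a (-0.21, edgeR adjusted p = 0.0495) and Wnt6 (-0.19, edgeR adjusted p = 0.038). Fzd10, tested in Renca but too low in AB1, differed by -0.55 ± 0.26 (edgeR adjusted p = 0.13). The 10 members not tested in Renca were those not tested in AB1, without Fzd10. Wif1 among them had medians of 0.0561 and 0.0691 CPM.

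Beside the members, and against 19.6% of all genes, 3 of 10 secretion genes fell in Renca responders and none rose, with Wls at -0.14 ± 0.04 (edgeR adjusted p = 0.0090), Porcn, the enzyme that attaches the lipid to Wnt proteins, at -0.36 ± 0.11 (edgeR adjusted p = 0.023) and Notum, which removes it, at -0.21 ± 0.07 (edgeR adjusted p = 0.034). Celsr3, Rnf43, Celsr2 and Prickle1 fell among 16 co-receptor and polarity genes, the first 3 by 0.28, 0.31 and 0.28. Of the relay 3 of 15 fell, Csnk1e by 0.10, Apc2 by 0.46 and Dvl1 by 0.09. Nuclear factors gave 4 higher and 1 lower of 12, including Tcf7 (0.65 ± 0.15), Lef1 (0.88 ± 0.23) and Tle2 (-0.23 ± 0.05). All 8 T cell genes rose beside Tcf7 and Lef1 (median 0.87). Target genes gave 1 higher and 3 lower of 12, with Wisp2 at -0.38 ± 0.08. No gene of the fibroblast list passed in Renca (edgeR, median 0.12 over 8 genes, 2 at an unadjusted p of 0.05). All 4 tested renal tubule genes fell (median -0.26), while 7 of 7 leukocyte genes (median 0.38) and 4 of 6 macrophage genes (median 0.28) rose. Their part in the 3 member calls was not tested.

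Whether the response effect differed between the tumours was tested in 1 fit of all 48 libraries. Of 26 members tested 2 had a higher effect in AB1 and 9 a lower one, where 41.6% of 16920 genes passed, 22.9% higher and 18.6% lower. Members passed at 42.3%, close to that background. With library totals alone 2 members were higher and 11 lower, and the gene-wide 3877 higher and 3155 lower became 2943 and 4507. Lrp5 rose in AB1 relative to Renca by 0.62 ± 0.11 (edgeR adjusted p = 2.8e-05) and Wnt6 by 1.11 ± 0.25 (edgeR adjusted p = 0.00034). Lower effects in AB1 were found for Lrp6 (-0.41 ± 0.09, edgeR adjusted p = 0.00018), Fzd2 (-0.57 ± 0.11, edgeR adjusted p = 0.00011) and Fzd3 (-1.87 ± 0.44, edgeR adjusted p = 0.00061). The effects of Sfrp2, which had passed with opposite signs when each tumour was fitted on its own, differed by -1.38 ± 0.34 (edgeR adjusted p = 0.0013). In 1 fit of all libraries the Renca effect of Sfrp2 alone was 0.47 and did not pass (edgeR adjusted p = 0.22), and its AB1 call was also lost without the skin-rich libraries or with the RNA absorbance ratios. With the replicate block Fzd10 (-1.41, edgeR adjusted p = 0.027) and Wnt4 (-1.06, edgeR adjusted p = 0.029) also passed. Fzd4, which fell in both, had effects that differed by -0.21 ± 0.13 and did not pass (edgeR adjusted p = 0.19), nor did Axin2 (-0.18 ± 0.11, edgeR adjusted p = 0.18).

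Between tumours, 7 of 25 tested members were higher in AB1 and 14 lower, with 4 not passing, where 81.4% of 16258 genes passed, 42.2% higher and 39.3% lower. Members passed at 84.0%, near that background, and their median log2 difference was -0.59 against 0.03 over all genes. In 6 members, Axin2, Ctnnb1, Dkk2, Dkk3, Lrp5 and Wnt6, the 24 AB1 libraries and the 24 Renca libraries did not overlap. The share of all genes that stood apart in this way was not counted, so the 6 describe levels and are no trait of the members. No ligand that passed the filter on low counts was called higher in AB1, and 6 of 9 were lower.

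The 2 largest differences upward were antagonists. Dkk2 had medians of 360 and 185 CPM in AB1 non-responders and responders against 5.36 and 5.26 CPM in Renca, with a lowest AB1 library of 40.8 and a highest Renca library of 8.30. It was 52.9-fold higher in AB1 (log2 difference 5.73 ± 0.21, edgeR adjusted p = 3.7e-29). Dkk3 was at medians of 268 and 239 CPM in AB1 and 37.1 and 41.1 in Renca, 6.68-fold higher (2.74 ± 0.10, edgeR adjusted p = 1.1e-28). Sfrp1 was also higher (0.51 ± 0.16), but not among responders alone (0.18). Sfrp2 and Sfrp5 were lower, by 1.02 ± 0.20 and 0.76 ± 0.22 on the log2 scale, and neither passed among non-responders alone.

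Of ligands, Wnt5a was at medians of 1.47 and 0.999 CPM in AB1 and 22.8 and 18.2 CPM in Renca. It was 9.62-fold lower in AB1 (log2 difference -3.27 ± 0.29, edgeR adjusted p = 1.4e-14). Only the skin-rich AB1 non-responder 3, at 22.3 CPM, was above the Renca responder median, and no AB1 library was above the Renca non-responder median. Without the 3 skin-rich libraries the difference was -3.91. Wnt6 had medians of 0.766 and 1.49 CPM in AB1 and 6.68 and 5.54 CPM in Renca (-2.42 ± 0.15, edgeR adjusted p = 5.2e-20), and its highest AB1 library, 2.23 CPM, lay below the lowest Renca library, 4.46 CPM. Wnt2b was at medians of 1.5 and 1.53 CPM in AB1 against 4.24 and 4.63 in Renca (-1.40 ± 0.10, edgeR adjusted p = 1.8e-17). Wnt5b differed by -0.84 ± 0.10, Wnt9a by -0.59 ± 0.15 and Wnt10a by -0.45 ± 0.09. Among non-responders alone Wnt9a did not pass (-0.10, edgeR adjusted p = 0.49). Wnt4 and Wnt11 did not pass over all libraries (-0.87 and -0.49) and passed as lower in AB1 without the skin-rich libraries (-2.16 and -1.19).

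Among receptors, Fzd3 was at medians of 0.559 and 0.109 CPM in AB1 and 2.64 and 2.80 CPM in Renca (-2.97 ± 0.25, edgeR adjusted p = 3.0e-15). Fzd4 and Fzd1 were lower in AB1 by 0.69 ± 0.07 and 0.65 ± 0.09, and Fzd5, Fzd7 and Fzd2 were higher, by 0.68 ± 0.09, 0.49 ± 0.08 and 0.39 ± 0.07. Among responders alone Fzd2 did not pass (0.07, edgeR adjusted p = 0.50). Fzd10 did not pass (0.47 ± 0.55). Its level was under 1 CPM in every Renca library and at 12.96 CPM in AB1 non-responder 3, and the sign turned to -1.70 (edgeR adjusted p = 5.1e-06) without the skin-rich libraries. The co-receptors again went opposite ways, Lrp5 lower (-1.48 ± 0.07, edgeR adjusted p = 1.6e-24) and Lrp6 higher (0.52 ± 0.06, edgeR adjusted p = 1.9e-11) in AB1.

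Axin2 was 3.40-fold lower in AB1, at medians of 14.4 and 11.8 CPM against 45.1 and 41.6 CPM in Renca (log2 difference -1.76 ± 0.06, edgeR adjusted p = 1.6e-31), and the highest AB1 library, 20.1 CPM, lay below the lowest Renca library, 31.8 CPM. Ctnnb1 was 1.36-fold lower (-0.44 ± 0.03, edgeR adjusted p = 4.3e-21). Of 12 other target genes 2 were higher in AB1 and 8 lower, a called share of 83.3% beside 81.4% of all genes. Lgr5, a receptor for R-spondins, differed by -3.88 ± 0.28, Nkd1 and Nkd2, feedback inhibitors, by -2.38 ± 0.35 and -2.41 ± 0.30, and Notum by -2.16 ± 0.24. Bmp4, a growth factor, and Ccnd1, a cell cycle gene, were higher, by 3.26 ± 0.14 and 0.93 ± 0.08. Rnf43, which removes Frizzled receptors from the surface, was lower by 3.78 ± 0.18, with medians of 1.73 CPM in AB1 non-responders and 43.5 in Renca non-responders, and Porcn by 1.98 ± 0.08.

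**Figure D5:**
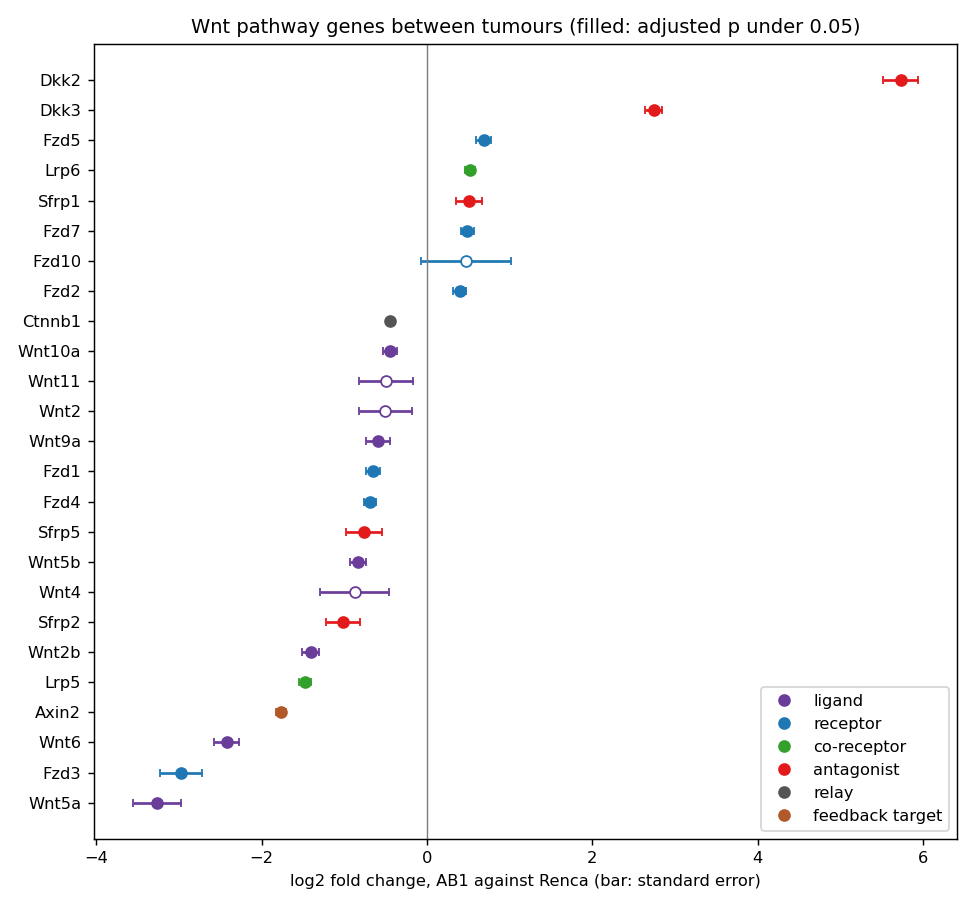
Log2 fold change of AB1 against Renca (points, with standard errors as bars) for the 25 members tested, coloured by role and ordered by size, with filled points past an adjusted p of 0.05. Dkk2 (5.73) and Dkk3 (2.74) lie at the top, and Wnt5a (-3.27), Fzd3 (-2.97), Wnt6 (-2.42) and Axin2 (-1.76) at the bottom.

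Relations among members were read within each group of 12, for 15 members expressed in all groups and 11 cell type lists, 1080 relations in all, adjusted together, of which 11 passed by Pearson's r. Fzd1 and Lrp5 had the highest lowest correlation of any member pair, with r from 0.59 to 0.78 and rho from 0.55 to 0.76 in the 4 groups. No group passed after adjustment for that pair (adjusted permutation p 0.097 to 0.24, unadjusted 0.0040 to 0.044 for r), and r ran from 0.41 to 0.57 without the 2 libraries farthest from the median of Fzd1. Wnt9a correlated with the fibroblast score at r from 0.41 to 0.84 and rho from 0.15 to 0.84. By r it passed in 1 of the 4 groups (adjusted permutation p 0.043 to 0.52) and by rho in none (0.10 to 0.88). Without the 2 farthest libraries r fell to between -0.12 and 0.77. Fzd2 had r from 0.36 to 0.82 and rho from 0.28 to 0.76 with that score. It too passed by r in 1 group (adjusted permutation p 0.044 to 0.59) and by rho in none (0.12 to 0.73). Without 2 libraries r was 0.19 to 0.70. With the bone and cartilage score Fzd2 had r from 0.24 to 0.88 (adjusted permutation p 0.028 to 0.765). Fzd1 with Sfrp2 had r from 0.51 to 0.86 (adjusted permutation p 0.028 to 0.36). Each of these passed by r in 1 group and by rho in none. Lrp5 and Lrp6 were the most opposed pair, with r from -0.50 to -0.20 and rho from -0.57 to -0.06, none past adjustment (adjusted permutation p 0.37 to 0.81). The sign was not kept within Renca flow cells. There r was -0.44 in the first and 0.82 in the second for non-responders, and 0.07 and -0.47 for responders. Within the second AB1 flow cell it was -0.38 in non-responders and -0.69 in responders. Within flow cells, r of Fzd1 with Lrp5 was 0.74 and 0.82 in the first flow cell of Renca non-responders and responders and 0.02 and -0.03 in the second. In AB1 it was 0.61 and 0.29 in the second flow cell, and the first held too few libraries of a group (5) for a correlation.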

How the data were processed

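RNA was sequenced from 48 whole tumours, 1 per mouse, in 4 groups of 12. The authors deposited unnormalised whole-number counts for 39637 mouse gene identifiers, of which 39461 matched GENCODE M21 (GRCm38), the source of exon lengths and overlaps used here. Per the submitters' processing notes, reads were handled with StringTie 1.3.0, HISAT2 2.0.4 and bcl2fastq 2.18.0.12, and GRCh37 and hg19 are named although the identifiers are mouse. For the mouse build, the counting tool and strandedness, nothing is given in the sources used here. Reads of Axin2, Ctnnb1, Fzd5, Sfrp2, Wnt11 and Wnt5a may therefore include those of an overlapping antisense gene (Gm11670, Ulk4, Gm38058, Gm26771, Gm8398 and Gm2670), and Ctnnb1 also overlaps Mir7090. Some mouse genes are not analysed here.

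Counts of all genes were fitted with edgeR 4.0.16 in R 4.3.3 (TMM scaling, filterByExpr, quasi-likelihood F test, Benjamini-Hochberg adjustment at 0.05 over all genes tested). Each tumour was fitted with its flow cell as a term. The tumours were set against each other in a fit with response as covariate, and the difference of effects came from all libraries together, with each of 4 flow cells as a level. A standard error is the size of the log2 change divided by the square root of F. Levels are CPM scaled over all 48 libraries, and log2 CPM used a prior count of 2. Correlations used two-sided permutation tests of 100000 resamples. The fit was also run on simulated counts with a single dispersion and few changed genes, unlike these data, which checks the code and not the results. DESeq2 1.42.0 was an alternative beside other scalings, filters, terms and left-out libraries.

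In each tumour the responder and the non-responder of the same number ran in a common lane in 12 of 12 pairs, which the labels state. A pair of the same number therefore shares a batch. Numbers 9 to 12 of each tumour ran in 1 common lane, so there a number does not mark a lane of its own. Their deviations from the group means correlated from -0.07 to 0.54 in AB1 (median 0.04) and from -0.12 to 0.23 in Renca (median 0.08). The highest AB1 values were those of number 3 (0.54) and number 12 (0.48). Number 3 holds the skin-rich non-responder 3 and responder 3. Number 12 holds responder 12 and non-responder 12, at 28372 and 33155 CPM of the fibroblast list. Responders 3 and 12 may therefore not be independent of their lane mates, which was not tested. Values in full are given for up to 14 called members of smallest p in AB1, 8 in Renca and 6 in the difference of effects, for the 10 of largest change between tumours whose mean log2 CPM reached 1 in either tumour, for Ctnnb1, Lrp5, Lrp6, Axin2 and Wif1, and for 3 called genes of smallest p per pathway list. Wnt4 and other members outside this rule were added after their values were seen. The members and lists were chosen with earlier results of these data known.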

Additional observations from a re-analysis of the deposited data

Results flagged for a closer look

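The response effects of 11 members differed between AB1 and Renca in the fit of all 48 libraries, which tests that difference itself (log2, AB1 minus Renca, edgeR adjusted p). Higher in AB1 were Lrp5 by 0.62 (p = 2.8e-05) and Wnt6 by 1.11 (p = 0.00034). The receptors Fzd2, Fzd3 and Fzd5 stood at -0.57 (p = 0.00011), -1.87 (p = 0.00061) and -0.53 (p = 0.0023). Lrp6 stood at -0.41 (p = 0.00018). The antagonists Dkk2 and Sfrp2 stood at -0.86 (p = 0.039) and -1.38 (p = 0.0013). Among ligands, Wnt5b was at -0.52 (p = 0.013), Wnt9a at -0.94 (p = 0.0026) and Wnt11 at -1.54 (p = 0.023). All 11 passed with the replicate block, with DESeq2 and without the 3 skin-rich libraries. Over all genes 41.6% passed this test.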

How the results depend on the processing

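In AB1, 2 members rose and 13 fell in the fit as reported. The number higher was 0 within the first flow cell, 0 with the fibroblast score as a term and 4 without the 3 skin-rich libraries. The number lower was 8 within the first flow cell, 6 within the second and 0 with the fibroblast score, where Dkk2 (0.13, adjusted p = 0.92) and Wnt6 (-0.072, adjusted p = 0.95) reversed. Calls over all genes dropped too, from 4396 higher and 5181 lower in the fit as reported. They were 3072 and 2825 within the first flow cell, 4164 and 3652 within the second, and 2 and 1 with the fibroblast score. Leaving out 1 library gave 2 to 4 higher and 11 to 14 lower. In Renca, with 1 higher and 2 lower, the number higher was 0 within either flow cell, with the RNA absorbance ratios and in 1 fit of all 48 libraries. The number lower was 1 without the filter, 1 without the flow cell term, 4 with the replicate block and 0 within either flow cell or with the absorbance ratios. Over all genes the first Renca flow cell called 0, the second 925 higher and 318 lower, and the fit with the absorbance ratios 115 and 88. Leaving out 1 library there gave 1 higher in every fit and 1 to 3 lower. Between tumours, 7 members were higher, and 11 without the filter on low counts, the 4 added being Wnt3, Wnt3a, Wif1 and Wnt16. Each was highest in the skin-rich AB1 non-responder 3 (5.57, 1.40, 6.55 and 1.92 CPM). Wnt16 was nearly as high in AB1 non-responder 2 (1.86 CPM), which was not skin-rich. Fzd10 reversed from 0.47 to -0.99 with DESeq2 and -1.70 without the skin-rich libraries. The cause was not tested in these cases, but the flow cell fits hold fewer libraries. The replicate block kept all 15 calls in AB1, 3 in Renca and 11 in the difference of effects, and it added only Wnt5a and Wnt6 in Renca and Fzd10 and Wnt4 in the difference of effects, as the report gives. The absorbance ratios and the keratinocyte score each lost the same 4 of 15 AB1 calls, Sfrp2, Wnt11, Wnt2 and Wnt4. AB1 non-responder 3 was extreme for both, so these fits are not separate checks. Members with few counts in every group, such as Dkk1 and Dkk4 with at most 3, cannot show a difference at this depth.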
